A study of Mus musculus with 31 samples.

Results

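Of the 22609 genes measured in mouse mammary tissue at parturition, 33 were found whose transcript was high in glands with 2 functional Stat5 alleles, low in glands with 0 or 1, and no more than moderately different in wild type with 4. The genes were chosen by their deposited FPKM, which is fragments per kilobase of transcript, normalised to the mapped fragments of the library. The lower of the columns BB and AB had to be at least 2 times the highest of Null, B and A and at least 5 FPKM, and AABB had to lie between 0.67 and 1.5 times the mean of BB and AB. All 6 columns of parturition entered this choice, so levels and ratios at parturition are a description of the genes and not a test. Genes were compared where 2 or more columns reached 1 FPKM, and of those 13061 genes 0.253% met the rule.

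Mammary tissue without lymph nodes was taken from mice of mixed 129SV, FVB/N and C57BL/6 strain at 2 stages, day 6 of pregnancy and parturition (up to 12 hours after delivery), and its poly(A) RNA was sequenced. The ages of the mice were not given. Null glands (Stat5abfl/fl;MMTV-Cre) carry 0 functional Stat5a or Stat5b alleles in the epithelium, where the MMTV promoter drives Cre, and keep both genes in the stroma. In the other mutants the alleles are germline losses. B mice (Stat5abnull/Stat5a-) keep 1 Stat5b allele, A mice (Stat5abnull/Stat5b-) 1 Stat5a allele, BB mice (Stat5a-/-) 2 Stat5b alleles, and AB mice (Stat5ab+/null) 1 allele of each gene. AABB is wild type with 4 alleles, and the series text counts Stat5abfl/fl mice under this name too. The labels list 13 samples at parturition (3 of B and 2 of each other genotype) and 18 at day 6 (3 of each), and their protocol names 2 mice per genotype. Samples of B and A carry tags with shared numbers ending in L and R, and whether they come from the same animal is not stated. Each table holds 1 column per genotype, in which the authors combined its samples. Values therefore carry neither SD nor n, differences could not be checked against replicates, and p-values are absent throughout.

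STAT5A and STAT5B are closely related transcription factors that become active when prolactin binds its receptor and the kinase JAK2 phosphorylates them. They then bind DNA as dimers at sites built on the motif TTCNNNGAA. In mammary epithelium they are known for the formation of alveoli in pregnancy and for the switching on of milk genes, and STAT5A is the more abundant of them in this tissue.

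The genotype columns were first set against their labels and tissue. At parturition Stat5a was 7.69 FPKM in Null, 9.69 in B, 18.1 in A, 4.24 in BB, 21.4 in AB and 56.2 in AABB. Stat5b was 8.46 in Null, 14.2 in B, 11.4 in A, 12.4 in BB, 10.5 in AB and 20.1 in AABB. Some levels did not follow the allele number. The column labelled B held more Stat5a than BB, although neither should have a functional Stat5a allele. It also held more Stat5b than BB with 2 alleles, and A, with no functional Stat5b allele, held more Stat5b than AB. At day 6 Stat5a was 13.2 in Null, 13.3 in B, 17.0 in A, 3.51 in BB, 12.3 in AB and 35.0 in AABB, so that Null and B were above AB. Stat5b at day 6 was 8.74 in Null, 13.2 in B, 11.3 in A, 14.3 in BB, 10.7 in AB and 17.4 in AABB. Every statement on a genotype refers to the column labelled so. The 19 luminal epithelial markers summed to 1777 FPKM in Null, 3146 in B, 3166 in A, 3560 in BB, 3000 in AB and 2520 in AABB. That sum was lowest in Null and did not separate the 1-allele from the 2-allele columns. Of these 19 markers, 2 were at least 2-fold higher in the mean of BB and AB than in the mean of Null, B and A after scaling. They were Muc1, itself one of the 33 genes, and the alveolar factor gene Elf5. White adipocyte markers went the other way, with 16 of 17 at least 2-fold lower in the 2-allele columns and sums of 35832 FPKM in Null, 24557 in B, 25999 in A, 10013 in BB, 8399 in AB and 4026 in AABB. Skeletal muscle markers were lower in 14 of 14 cases, with sums of 2989 to 4898 FPKM in Null, B and A, 10.6 in BB, 13.7 in AB and 243 in AABB. Of all 13061 compared genes, 387 were at least 2-fold higher and 523 lower on the measure used for these lists. The part that this different share of fat and muscle RNA plays in the levels below was not tested. In tissue RNA, fewer cells of a type and less RNA per cell cannot be told apart.

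The 4 genes with the highest mean of BB and AB were Lalba, Btn1a1, Plin2 and Muc15, although in AB alone Saa1 and Saa2 exceeded Plin2 and Muc15. Lalba, which encodes alpha-lactalbumin, the regulatory subunit of lactose synthase, stood at 21 FPKM in Null, 261 in B, 881 in A, 7212 in BB, 6158 in AB and 8626 in AABB. Btn1a1, encoding butyrophilin of the milk fat globule membrane, was 6.03 in Null, 168 in B, 231 in A, 1089 in BB, 878 in AB and 1103 in AABB. Plin2, encoding the lipid droplet coat protein adipophilin, was 210 in Null, 304 in B, 317 in A, 1203 in BB, 675 in AB and 1045 in AABB. Lalba and Btn1a1 were thus already well above Null with a single allele, while Plin2 was within 2-fold of Null in both 1-allele columns. The membrane mucin genes followed the same split. Muc1 was 19.2 in Null, 58.1 in B, 76.6 in A, 193 in BB, 242 in AB and 281 in AABB, and Muc15 was 197, 318, 342, 1113, 716 and 1132 FPKM in the same order of genotypes. Acsl4, an acyl-CoA synthetase gene for long-chain polyunsaturated fatty acids, was 12.4 in Null, 21.4 in B, 16.8 in A, 89.6 in BB, 47.2 in AB and 87.8 in AABB. Sec23b, which encodes a coat component of vesicles that leave the endoplasmic reticulum, was 19.3 in Null, 25.1 in B, 23.4 in A, 82.0 in BB, 65.3 in AB and 108 in AABB. BB was higher than AB in 6 of these 7 genes, the exception being Muc1. After scaling, AB was the higher one in 48.6% of all compared genes. The 7 genes were grouped after their values were seen.

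**Figure D1:**
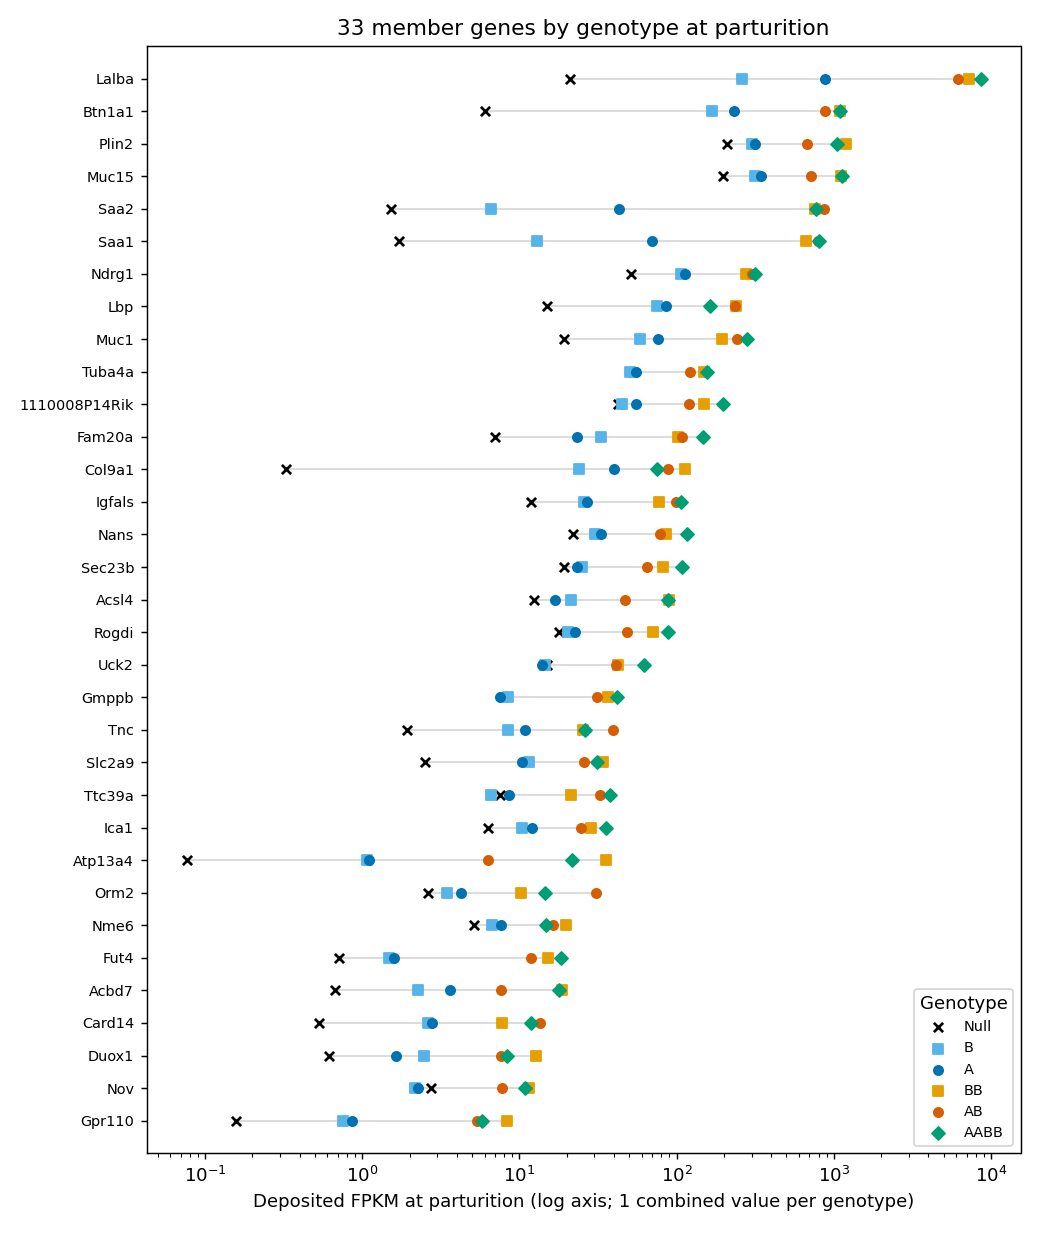
Deposited FPKM of the 33 genes at parturition on a log axis, with 1 point per genotype that is the authors' combined value and 1 row per gene, ordered by the mean of BB and AB. The BB, AB and AABB points lie together at the right of each row, from 5.38 FPKM for Gpr110 in AB to 8626 for Lalba in AABB, while Null, B and A lie to the left and their spread differs from gene to gene.

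Most milk protein genes did not belong to this group. Of 16 listed milk protein genes, 14 met the same fold and floor. In 11 of them AABB stood above 1.5 times the mean of BB and AB, at a median of 2.71 times it. Csn2 (beta-casein) was 108684 FPKM in BB, 91132 in AB and 193548 in AABB, and the whey protein gene Wap was 16738, 25758 and 109772 FPKM in these columns. Lalba, Btn1a1 and Muc1 were the 3 within the band, at 1.29, 1.12 and 1.29 times the 2-allele mean. The other subunit gene of lactose synthase, B4galt1, was 193 in BB, 200 in AB and 491 in AABB, a ratio of 2.50, beside the 1.29 of Lalba. Over all genes, 121 (0.926% of those compared) met fold and floor, of which 81 lay above the band, 33 within it and 7 below it.

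The acute phase and defence genes included the largest steps. Saa1 and Saa2 encode serum amyloid A proteins, which in mice are secreted in inflammation and are made by several epithelia besides the liver. Saa1 was 1.70 FPKM in Null, 12.9 in B, 70.2 in A, 670 in BB, 792 in AB and 808 in AABB. Saa2 was 1.53 in Null, 6.60 in B, 43.1 in A, 758 in BB, 872 in AB and 766 in AABB. In both, the lower 2-allele column exceeded the highest of Null, B and A by the widest margins of the 33 genes, 9.55-fold for Saa1 and 17.6-fold for Saa2. Their coding transcripts are 94.4% identical over 606 aligned bases in the GENCODE M21 annotation, so how the authors' counting divided reads between them is uncertain. The promoter windows of this pair are shown because the levels of the pair followed each other across genotypes. They lie on opposite strands of chromosome 7, at chr7:46742931-46743230 (minus strand) for Saa1 and chr7:46751583-46751882 (plus strand) for Saa2, in RefSeq's GRCm38.p6. Each window runs from 250 bases before to 50 after the start of the gene, and capitals mark bases that differ in the alignment of the pair.
Saa1: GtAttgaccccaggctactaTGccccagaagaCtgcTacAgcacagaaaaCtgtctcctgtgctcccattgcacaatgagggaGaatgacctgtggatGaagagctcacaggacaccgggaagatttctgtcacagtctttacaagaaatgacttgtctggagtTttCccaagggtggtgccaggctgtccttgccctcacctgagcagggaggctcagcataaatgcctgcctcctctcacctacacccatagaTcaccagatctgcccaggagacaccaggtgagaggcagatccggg
Saa2: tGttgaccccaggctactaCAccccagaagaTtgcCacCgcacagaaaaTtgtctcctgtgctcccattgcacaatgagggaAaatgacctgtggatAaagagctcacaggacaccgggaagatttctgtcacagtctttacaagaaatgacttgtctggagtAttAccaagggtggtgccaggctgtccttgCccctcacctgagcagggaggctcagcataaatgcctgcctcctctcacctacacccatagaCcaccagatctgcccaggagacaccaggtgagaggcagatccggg
The windows were identical at 287 of 301 aligned positions (95.3%, with 2 positions facing a gap), and neither held TTCNNNGAA.

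Lbp, the gene for a protein that binds bacterial lipopolysaccharide, was 15.0 FPKM in Null, 75.1 in B, 86.2 in A, 240 in BB, 237 in AB and 164 in AABB. It was the gene with the lowest wild-type level relative to 2 alleles, at 0.688 times their mean. Orm2, encoding an alpha-1-acid glycoprotein, was 2.62 in Null, 3.48 in B, 4.23 in A, 10.2 in BB, 30.5 in AB and 14.6 in AABB. Orm2 has close relatives in the genome and its level is uncertain. Duox1, encoding an oxidase that makes hydrogen peroxide at epithelial surfaces, was 0.610 in Null, 2.47 in B, 1.64 in A, 12.7 in BB, 7.67 in AB and 8.32 in AABB. Card14, a scaffold gene of NF-kappaB signalling, was 0.527, 2.62, 2.78, 7.76, 13.5 and 11.8 FPKM in that order. Of these 6 genes, 5 were at least 2-fold above Null in both 1-allele columns, Orm2 being the exception.

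Genes of sugar nucleotide and nucleotide supply formed the next set. Gmppb makes GDP-mannose, and stood at 7.86 FPKM in Null, 8.48 in B, 7.56 in A, 36.7 in BB, 31.3 in AB and 41.8 in AABB. Uck2, a uridine and cytidine kinase gene, was 15.0 in Null, 14.5 in B, 13.9 in A, 42.4 in BB, 41.5 in AB and 62.1 in AABB. Nans, the sialic acid synthase gene, was 21.8 in Null, 30.2 in B, 32.9 in A, 85.1 in BB, 77.9 in AB and 116 in AABB. In these 3 genes B and A were between 0.928 and 1.51 times Null, and the larger step lay between 1 and 2 alleles. Fut4, a fucosyltransferase gene of the Lewis x antigen, was 0.714 in Null, 1.48 in B, 1.59 in A, 15.1 in BB, 11.9 in AB and 18.4 in AABB. Slc2a9, a urate and sugar transporter gene, was 2.50, 11.6, 10.4, 34.2, 25.7 and 31.0 FPKM in the same order, and Nme6, of the nucleoside diphosphate kinase family, was 5.13, 6.68, 7.66, 19.7, 16.4 and 14.7. On deposited values BB was higher than AB in all 6, although for Uck2 the order turned round after scaling. AB was the higher one in 48.6% of all compared genes after scaling, and the 6 were grouped after their values were seen.

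Several matrix and secreted factors shared the pattern. Col9a1, a collagen IX chain gene, was 0.329 FPKM in Null, 24 in B, 40.0 in A, 113 in BB, 87.6 in AB and 75.3 in AABB, which made it the gene with the highest ratio of B and of A to Null. Tnc, which encodes tenascin C, was 1.94 in Null, 8.46 in B, 10.9 in A, 25.5 in BB, 39.3 in AB and 26.2 in AABB. Fam20a, whose product is a pseudokinase that aids the secretory pathway kinase FAM20C, was 6.96 in Null, 33 in B, 23.3 in A, 101 in BB, 108 in AB and 147 in AABB. These 3 genes were above Null with 1 allele by between 3.35-fold and 122-fold. Igfals, the gene of the acid-labile subunit that holds IGF in serum complexes, was 11.8, 25.9, 27, 76.7, 99.4 and 107 FPKM in the same order. Nov, a CCN family matrix protein gene, was 2.73 in Null, 2.17 in B, 2.26 in A, 11.5 in BB, 7.75 in AB and 10.9 in AABB. The fibroblast and matrix marker list summed to between 3344 and 4550 FPKM in Null, B and A, 4204 in BB, 3734 in AB and 734 in AABB. After scaling, none of its 15 genes was 2-fold different between the mean of BB and AB and the mean of Null, B and A. The median log2 ratio of AABB to the mean of BB and AB over these genes was −2.27.

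The remaining 9 genes have mixed roles. Ndrg1, a gene that responds to hypoxia and differentiation, was the highest of them, at 51.1 FPKM in Null, 106 in B, 112 in A, 276 in BB, 302 in AB and 314 in AABB. Tuba4a, an alpha-tubulin gene, was 52.7, 50.4, 55.2, 149, 121 and 156 FPKM in the same order. Atp13a4, a P5-type ATPase gene, was 0.0761 in Null, 1.07 in B, 1.11 in A, 35.6 in BB, 6.31 in AB and 21.6 in AABB. In Atp13a4 the 2-allele genotypes therefore differed more from each other than in any other of the 33 genes. Ica1, Rogdi, Ttc39a, Acbd7, Gpr110 (Adgrf1 in RefSeq, an adhesion receptor gene) and 1 uncharacterised gene completed the set, and the 5 named ones had 2-allele levels from 5.38 FPKM for Gpr110 in AB to 70.6 for Rogdi in BB. Exons of 6 of the 33 genes overlap a gene of the tables on the opposite strand in GENCODE M21, namely Nans with Trim14, Tuba4a with Stk16, Card14 with Sgsh, Gmppb with Rnf123, Muc15 with Ano3 and the uncharacterised gene with Ciz1. Whether strand was used in counting is not given in the sources used here, so reads of such pairs cannot be told apart.

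The level with a single allele divided the group. On deposited values B and A were both at least 2-fold above Null in 18 of the 33 genes, which holds for 4.1% of all compared genes. The 18 comprised the milk genes Lalba, Btn1a1 and Muc1, 5 of 6 defence genes, 4 of 5 matrix and secreted factor genes, Fut4, Slc2a9, Ndrg1, Atp13a4, Acbd7 and Gpr110. In the other 15, B and A both stayed within 2-fold of Null. On scaled FPKM + 1, which damps the ratios of low genes, 14 genes were 2-fold above Null in B and 14 in A, and 0 were below in either. Over all compared genes B was this far above Null for 2.71% and this far below it for 2.86%, and for A the shares were 3.49% and 3.17%. Of the 81 genes with AABB above the band, 29 were 2-fold above Null in both B and A. A was higher than B in 26 of the 33 genes, against 48.2% of all compared genes. After scaling 3 genes reached 2-fold, with log2 ratios of 2.55 for Saa2, 2.37 for Saa1 and 1.78 for Lalba. Of all compared genes 0.36% were that much higher in A and 0.329% lower. Of the 81 genes above the band, 13 were that much higher in A and 0 lower. The median log2 ratio of A to B was 0.15 over the 33 genes and 0.14 over the 81, so this lean was not particular to the 33.

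BB and AB lay within 1.5 times of each other without scaling in 22 of 33 genes, against 80.6% of all compared genes. AB was at least 1.5 times BB in 4 (10.3% of all), and BB at least 1.5 times AB in 7 (9.02%). On the scaled values, of which the log2 ratio of FPKM + 1 was taken, AB was higher than BB in 12 of 33 genes, against 48.6% of all compared genes. Past 2-fold, Orm2 was higher in AB (log2 ratio 1.57), while Atp13a4 (−2.26) and Acbd7 (−1.13) were lower, where 1.06% of all genes were higher and 0.72% lower. The median log2 ratio was −0.17 over the 33 genes and −0.01 over all genes compared.

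**Figure D2:**
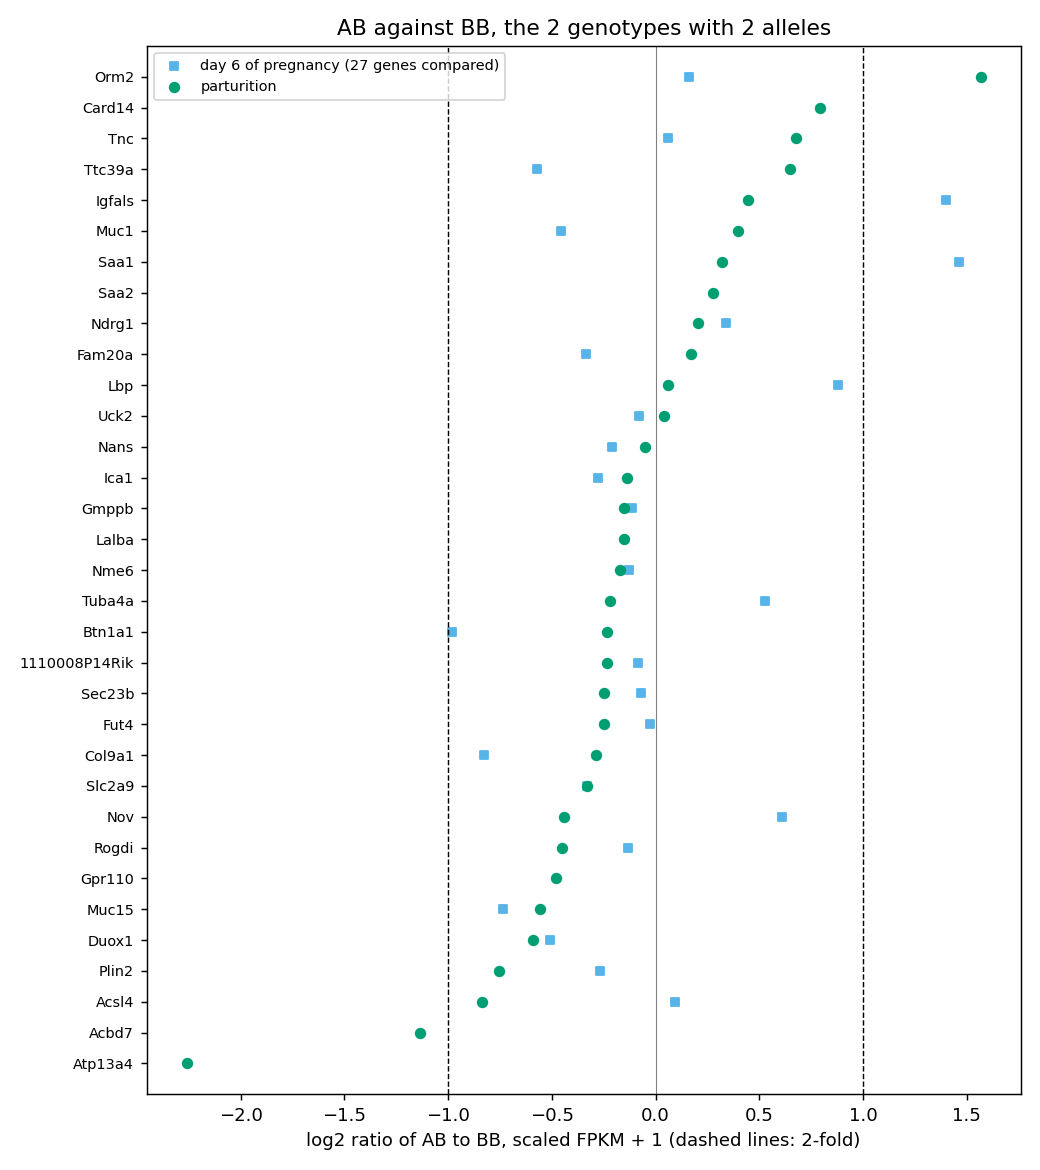
The log2 ratio of AB to BB on scaled FPKM + 1 for each of the 33 genes at parturition (circles) and for the 27 compared at day 6 of pregnancy (squares), with dashed lines at 2-fold. At parturition Orm2 (1.57), Acbd7 (−1.13) and Atp13a4 (−2.26) lie outside the lines, and at day 6 Igfals (1.40) and Saa1 (1.46) do.

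How fully 2 alleles matched 4 depended on the scaling between columns. The 6 columns of parturition had FPKM sums from 432576 in Null to 1190588 in AABB, of which the milk protein list took 2718 in Null and 779144 in AABB. Scaling, in which each column is divided by a factor so that its median gene equals the geometric mean of the columns, gave factors of 1.11 for Null, 1.13 for B, 1.11 for A, 0.990 for BB, 0.939 for AB and 0.799 for AABB. Over all compared genes the median log2 ratio of AABB to the mean of BB and AB was −0.27 without scaling and −0.05 with it. On deposited values the median ratio over the 33 genes was 1.15, and AABB was above both BB and AB in 18 genes, between them in 12 and below both in 3 (Lbp, Col9a1 and Nme6). On scaled values the median ratio was 1.40, and 14 of the 33 genes stood above 1.5, from Muc15 at 1.503 to Rogdi at 1.79. The rule applied to scaled values held for 34 genes, of which 19 were among the 33, and all 14 that were lost had AABB above the band. The 6 defence genes all met it, as did 4 of 5 matrix and secreted factor genes (all but Fam20a), while of the 7 milk genes Btn1a1 and Plin2 did, and Lalba was at 1.56. On scaled FPKM + 1, wild type was higher than the 2-allele mean for 27 of the 33 genes, at a median log2 ratio of 0.48. At 2-fold 0 genes were higher and 0 lower, which the band of the rule and the size of the factors had fixed beforehand. Over all compared genes, which no band limits, 4.67% were higher and 8.82% lower.

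**Figure D3:**
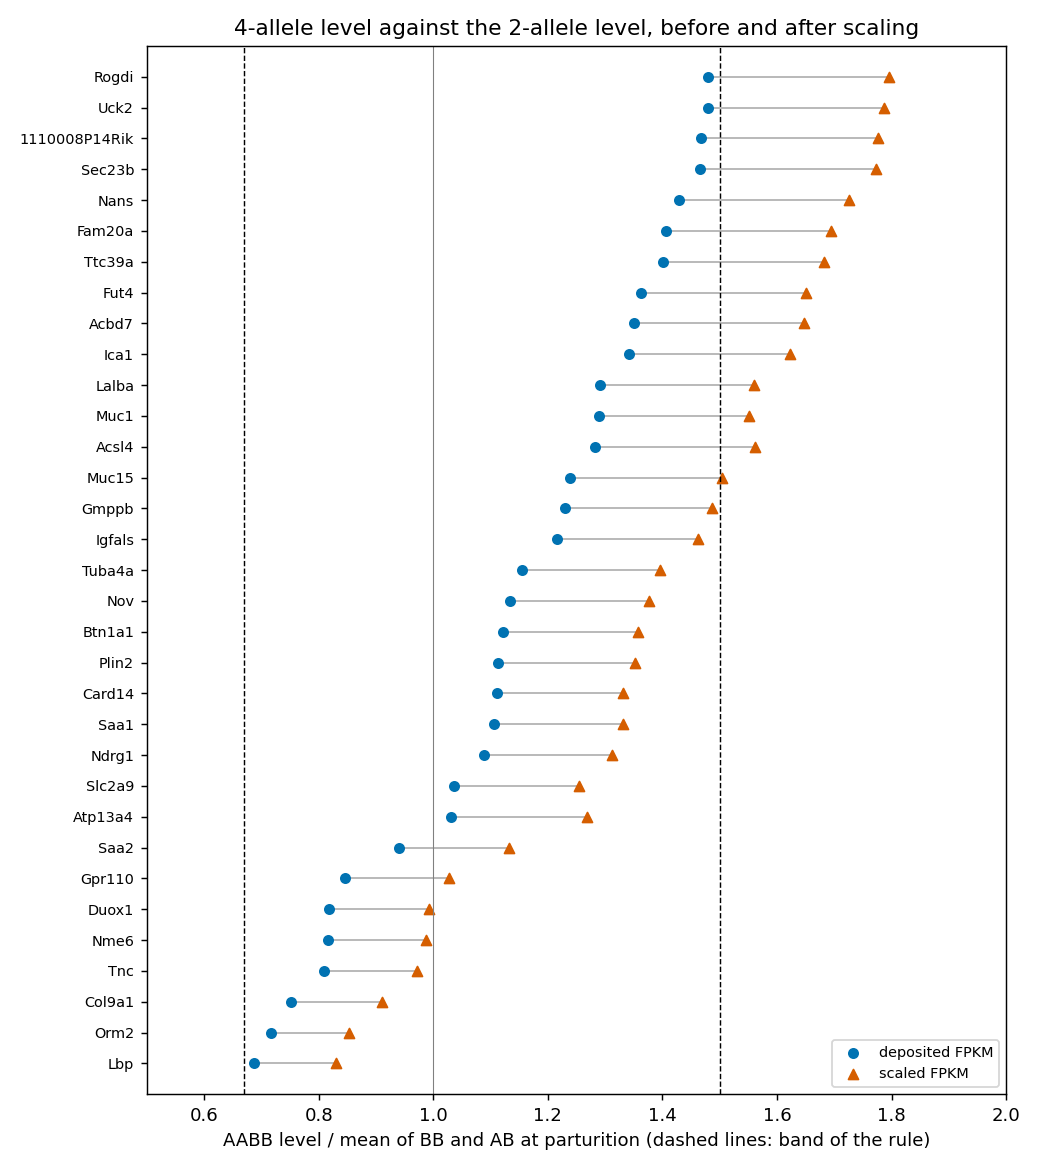
Ratio of the AABB level to the mean of BB and AB at parturition for each of the 33 genes, on deposited FPKM (circles) and after scaling between columns (triangles), with the limits 0.67 and 1.5 of the rule as dashed lines. Scaling moves each gene to the right, and 14 triangles lie above 1.5 against 0 circles.

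The genes nearest to each limit of the rule were the following. Ica1 (2.05) and Muc15 (2.09) stood just above the fold of 2, and Ada (1.95) and Iars (1.93) just below it. Gpr110 (5.38 FPKM) and Atp13a4 (6.31) were nearest to the floor from above, and Clca5 (2.66) and Skint2 (2.24) from below. At the top of the band, Rogdi and Uck2 had ratios of 1.48, and Igsf5 (1.503) and Elf5 (1.504) were just outside it. At its bottom, Lbp (0.688) and Orm2 (0.716) were inside, and Cck (0.617) and Ogfrl1 (0.527) outside. A fold of 3 left 10 genes, Lalba, Btn1a1, Saa1, Saa2, Fam20a, Gmppb, Atp13a4, Fut4, Duox1 and Gpr110.

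Day 6 of pregnancy supplied samples that the rule had not used. None of the 33 genes had both BB and AB at 2 times the highest of Null, B and A on scaled values, which 0.494% of 13367 compared genes did, and 0 met the whole rule (0.0299%). With shares this small, a count of 0 is near that of all genes and says nothing particular about the 33. The 2 tables were normalised separately and levels across them are only set side by side. Of the 33, 27 passed the filter on low values at day 6 and were compared. The other 6 were Lalba, which reached 11 FPKM in AABB and at most 0.887 elsewhere, and Saa2, Card14, Atp13a4, Acbd7 and Gpr110, which stayed at or below 2.76 FPKM in every column.

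At day 6, wild type stood apart for a subset of the genes. Btn1a1 was 1.68 FPKM in Null, 3.41 in B, 5.00 in A, 8.06 in BB, 3.45 in AB and 28 in AABB. Fam20a was 5.82 in Null, 10.4 in B, 7.62 in A, 18.6 in BB, 13.9 in AB and 61.9 in AABB. Tnc was 4.77 in Null, 6.06 in B, 3.81 in A, 5.44 in BB, 5.46 in AB and 22.9 in AABB. In these genes all 5 mutant columns were low, and the same held for Col9a1 and Slc2a9. All 5 mutants were at least 2-fold below AABB for these 5 of 27 genes (0.546% of all compared genes), and BB and AB both were for 6, Plin2 included (2.62%). Plin2 was 245 in Null, 213 in B, 238 in A, 192 in BB, 153 in AB and 508 in AABB. AABB exceeded each other column in 15 of the 27 genes, against 24.9% of all. Cell type markers also differed from AABB in several of these columns, although the fibroblast and mast cell sums in Null were close to those in AABB. The 19 luminal markers summed to 1883 FPKM in Null, 1664 in B, 1532 in A, 1551 in BB, 1012 in AB and 2548 in AABB, and between 3 of them (BB) and 10 (AB) were at least 2-fold lower than in AABB. The 15 fibroblast and matrix markers summed to 3669 in Null, 8645 in B, 8719 in A, 12676 in BB, 11985 in AB and 4002 in AABB. Of them 2 in Null, 14 in BB and 15 in AB were 2-fold higher than in AABB, and 0 in these columns were lower. The 8 mast cell markers summed to 74.6 in Null, 263 to 516 in B, A, BB and AB, and 73.3 in AABB. Despite the close sums, 4 of these 8 were at least 2-fold higher in Null than in AABB and 0 lower. None of these luminal, fibroblast and mast cell markers was at 0 in a mutant column. The 7 brown adipocyte markers summed to 603 FPKM in Null, 148 in B, 151 in A, 122 in BB, 171 in AB and 1680 in AABB. The part of these cell types in the differences from AABB was not tested.

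Against AABB at day 6, 7 of 27 genes were at least 2-fold lower in Null and 0 higher, beside 2.09% lower and 2.21% higher over all genes. In B 9 were lower and 1 higher (5.18% and 7.53% of all genes), and in A 8 were lower and 1 higher (5.53% and 7%). In BB 6 were lower and 1 higher (3.6% and 5.11%), and in AB 10 were lower and 2 higher (5% and 6.75%). Without scaling the split in BB was 7 lower and 0 higher, as Duox1 no longer reached 2-fold. These 5 comparisons share the AABB column. Among the genes with AABB above the band at parturition, 61 were compared at day 6. Of these 61, 20 were at least 2-fold lower in Null, 20 in B, 20 in A, 21 in BB and 23 in AB. In Null 0 of them were higher, and in each other mutant 1 was. Lower levels than in AABB were thus not particular to the 33 genes. Of the 27, those higher in mutants were Nov in B, A and AB, Duox1 in BB and Lbp in AB. Nov was 1.78 in Null, 7.16 in B, 6.80 in A, 3.95 in BB, 6.25 in AB and 1.72 in AABB. Its day 6 order, with B, A and AB highest and Null and AABB lowest, thus differed from that at parturition, where B and A were lowest.

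Between 2 alleles and fewer, from 1 to 5 of the 27 genes passed 2-fold per comparison at day 6, all but Ttc39a higher with 2 alleles. BB was at least 2-fold above B for Btn1a1 and below it for 0 genes (1.87% of all genes were higher and 4.58% lower). It was above Null for 5 genes, Btn1a1, Col9a1, Fam20a, Duox1 and Muc15, and below it for 0 (4.99% and 4.47%). AB was above A for Saa1, Igfals and Lbp and below it for 0 genes (3.76% and 4.11%). It was above Null for Nov, Fam20a, Saa1 and Igfals (5.68%), with Ttc39a below Null (3.74% of all genes were lower). Fam20a was the gene with both BB and AB 2-fold above Null, where 3.59% of all compared genes had this. Without scaling, 1 gene in place of 3 was 2-fold above A in AB. Of the 33 genes, 5 were highest in AB at day 6, namely Lbp, Saa1, Igfals, Tuba4a and Saa2, which did not pass the filter. Orm2 was not. Tuba4a was 44.3 FPKM in AB and 30.1 to 40.4 in the other columns. Lbp was 41.9 FPKM in AB and 20.9 to 23.6 in the other columns, Saa1 was 2.89 in AB and 0.172 to 1.22 in the others, and Igfals was 45.0 in AB and 17.2 to 27 in the others. Against BB, 2 of the 27 genes were 2-fold higher in AB and 0 lower (1.73% and 0.988% of all genes), or 2 and 1 without scaling. The same AB column held skeletal muscle markers at a sum of 7631 FPKM, against 54.5 to 628 in the other columns. Of these 14 markers, 12 were at least 2-fold higher in the mean of BB and AB than in the mean of Null, B and A. Of all 13367 compared genes, 209 were. The part of the muscle markers in these differences was not tested.

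**Figure D4:**
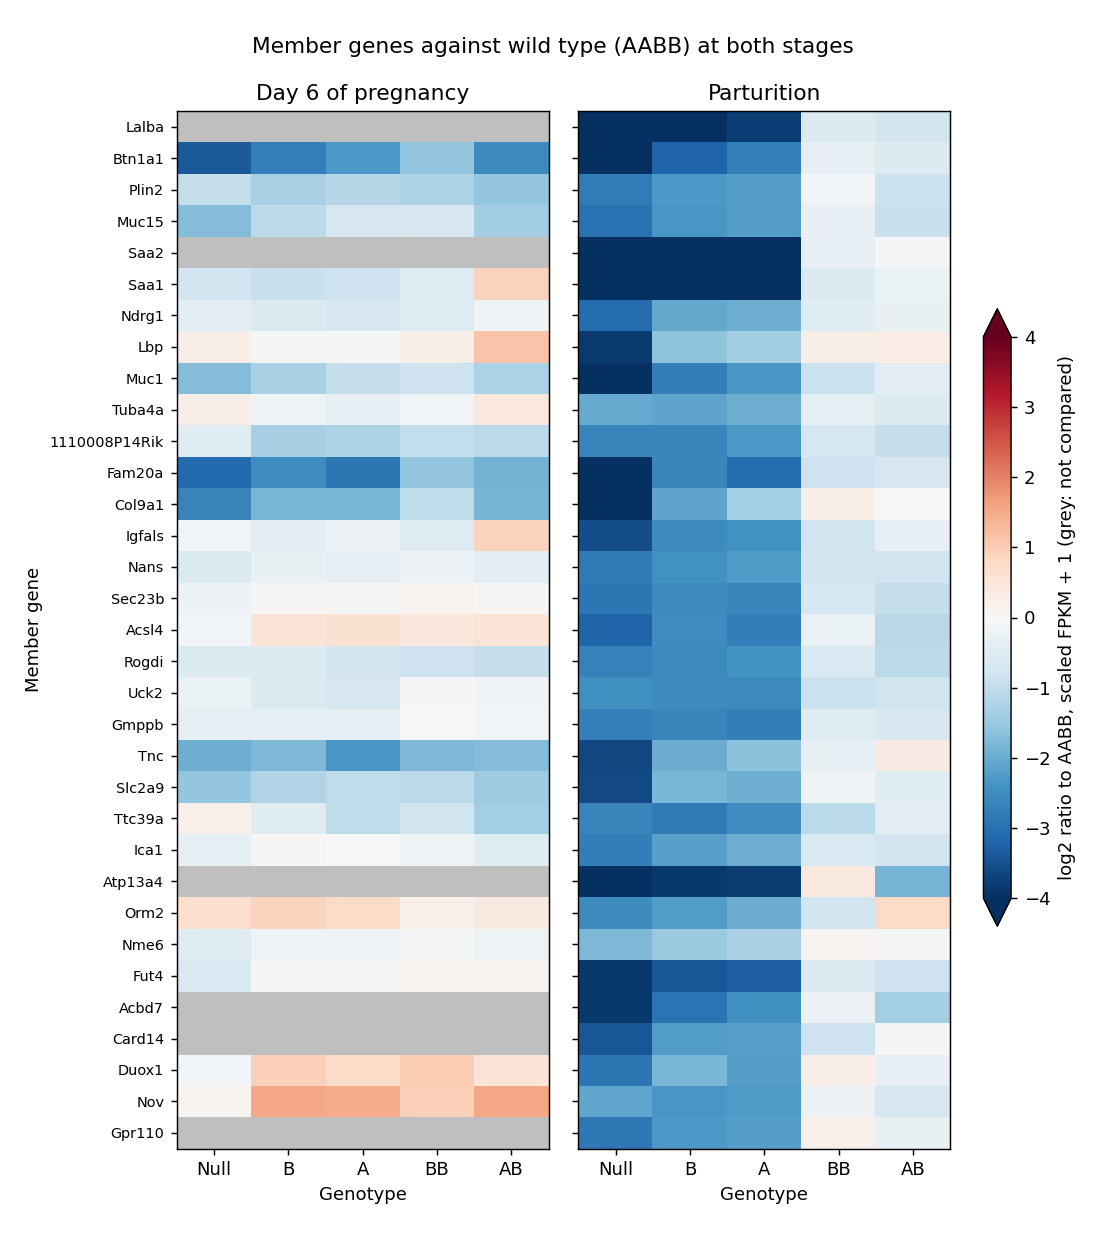
The log2 ratio of each mutant genotype to AABB on scaled FPKM + 1 for the 33 genes at day 6 of pregnancy (left) and parturition (right), with blue for lower and red for higher than AABB, colours ending at 4 in either direction, and grey for the 6 genes not compared at day 6. At parturition every gene is more than 2-fold lower in Null, B and A than in AABB. BB and AB range from −1.86 to 0.80, with Atp13a4 (−1.86) and Acbd7 (−1.36) in AB furthest below. At day 6, 15 of the 27 genes compared are lower than AABB in all 5 mutants, and Btn1a1, Fam20a, Col9a1, Tnc and Slc2a9 at least 2-fold so.

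The 29 pathway and marker lists were chosen with earlier results of these data known, so shares in them are a description and not a test. Of the 29, 6 held 8 of the 33 genes (24.2%), beside 3.09% of all compared genes that stand in a list. The 6 were milk proteins (Lalba, Btn1a1, Muc1), lactose and sugar nucleotides (Lalba), milk lipid synthesis (Plin2), secretory pathway (Sec23b), immunoglobulin transport and innate defence (Saa1, Saa2, Lbp) and luminal epithelium (Muc1). The other 23 held none. They included cell cycle, ribosomal protein, respiratory chain, cholesterol synthesis, amino acid transport and interferon genes and every marker list of stromal, fat, muscle, immune and nerve cells. As 0.253% of all compared genes met the rule, most lists of such a size would hold none, and their absence says little about the 33 genes. In the secretory pathway list 10 of 25 genes were at least 2-fold higher in the mean of BB and AB than in the mean of Null, B and A at parturition, with none lower and a median log2 ratio of 0.80, beside −0.06 over all genes. Of all 13061 compared genes, 387 were higher and 523 lower on this measure. Sec23b was the 1 gene of the list that met the fold and floor of the rule. Of the 15 listed genes of STAT5-linked signalling that were compared, 3 were higher and 2 lower on this measure, with a median of −0.27.

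The STAT5 motif TTCNNNGAA, which reads the same on both strands, was searched in RefSeq promoter windows of 300 bases. Such a window was matched by symbol for 25 of the 33 genes. It held the motif in 2 of these (8%), beside 8.41% of 9205 compared genes with a window and 8.3% of all 32851 windows. The 2 genes were Igfals and Sec23b, and their windows with the motif nearest to the start are shown with it in capitals, Igfals at chr17:24877981-24878280 and Sec23b at chr2:144555979-144556278, both on the plus strand of GRCm38.p6.
Igfals: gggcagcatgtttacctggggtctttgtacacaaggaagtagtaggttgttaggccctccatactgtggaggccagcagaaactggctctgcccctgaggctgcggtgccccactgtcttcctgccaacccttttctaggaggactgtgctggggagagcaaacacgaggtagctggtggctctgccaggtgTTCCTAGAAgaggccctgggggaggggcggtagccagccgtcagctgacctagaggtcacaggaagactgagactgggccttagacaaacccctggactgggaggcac
Sec23b: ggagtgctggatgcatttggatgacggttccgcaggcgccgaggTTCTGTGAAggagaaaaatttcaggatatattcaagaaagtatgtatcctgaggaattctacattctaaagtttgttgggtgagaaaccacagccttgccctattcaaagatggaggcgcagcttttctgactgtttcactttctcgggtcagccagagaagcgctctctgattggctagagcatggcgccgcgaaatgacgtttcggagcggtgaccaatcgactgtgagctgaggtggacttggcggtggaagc
The first motif base lies 58 bases before the start of the gene in Igfals and 206 before it in Sec23b. The share among the 33 genes was close to that of all genes, and sites further from the start were not searched.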

How the data were processed

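Poly(A) RNA libraries made with TRIzol extraction and the TruSeq kit were sequenced on an Illumina HiSeq, per the labels' protocols. CASAVA and TopHat with build mm9 are named in the submitters' processing notes, and versions, the program that computed FPKM, its annotation and filters are not given in the sources used here. The deposited FPKM values were combined by the authors per genotype and stage, 12 columns for 31 listed samples, so the tests and the analysis by replicate planned for single samples could not be run. Read depth is unknown and no counting interval was computed.

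The rule was applied to deposited FPKM. For ratios, the columns of each stage were scaled to a common level with size factors, each the median over genes of a column's FPKM divided by the gene's geometric mean. These used genes reaching 1 FPKM in every column (10864 at parturition, 11733 at day 6). Log2 ratios of scaled FPKM + 1 were taken where 2 or more columns reached 1 FPKM. A gene was counted at 2-fold. The calculation was tested on simulated data, in which equal numbers of genes were raised and lowered and ratios were taken without adding 1. The one-sided difference in milk protein genes between these columns was not simulated. The genes and the 29 lists were chosen with earlier results of these data known, and the grouping of the 33 genes by role was made after their values were seen. Genes were named if they stood in a list, were among the 10 highest or the 10 with the widest step, among the 5 at either extreme of AB to BB or of 2 alleles to fewer at day 6, or nearest a limit. Others were named for a known role after their values were seen. Alternatives were other folds, floors, bands, pseudocount, filter and scaling. Promoters are RefSeq's (GRCm38.p6), matched by symbol or synonym. Python 3.11.15, numpy 2.4.6, pandas 2.3.3 and matplotlib 3.10.9 were used.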

Additional observations from a re-analysis of the deposited data

How the results depend on the processing

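Of 50 recalculated counts, 39 stayed within 1.5 times the reported one. The number of genes chosen was 33, and became 98 with a fold of 1.5, 10 with a fold of 3 and 17 with a narrower band. With BB alone in place of BB and AB it was 72, of which 28 were among the 33. With AB alone it was 40, of which 22 were among them. In both of these the band set AABB against that 1 column and not against the mean of BB and AB. The number was 42 with a floor of 1 FPKM, 27 with a floor of 10, 35 without Null, 33 without B and 48 without A. On scaled values it was 34, of which 19 were shared. At day 6, BB alone met the fold for 2 genes and AB alone for 3, beside 0 for both, an alternative chosen after seeing the data. With a pseudocount of 0.1, genes past 2-fold at day 6 were 8 in place of 5 for BB against Null, 9 in place of 5 for AB against Null, 3 in place of 1 for BB against B and 4 in place of 2 for AB against BB. Without scaling, AB against A had 1 in place of 3. The cause was not tested. No paired analysis was possible because the tables hold 1 combined column per genotype, and for the same reason no replicate could be left out. Without replicates or depth, the error of no ratio is known.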
